A study of Rattus norvegicus with 7 samples.

Results

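Peaks called for Arteridin and peaks called for YBX1 were compared in rat A10 vascular smooth muscle cells that overexpressed Arteridin. The comparison set 587 YBX1 peaks against 2922 Arteridin peaks on chromosomes 1 to 20 and X, 3509 of the 6123 peaks in the 5 lists of the series. Members were taken by library and chromosome alone. The YBX1 list, called ART below after its label, came from cells given a plasmid for Arteridin-FLAG. The Arteridin list, called ORF after its label, came from cells read from the design text as overexpressing Arteridin. The label does not say whether that protein carried a tag. The lists used beside them were Arteridin ChIP without overexpression (CTR), YBX1 ChIP with overexpression of the lncPSR ATT mutant (PSR) and YBX1 ChIP from the library labelled NC, read as untreated cells. Each condition had 1 library and no difference between conditions was tested.

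A10 cells are an established line from rat thoracic aorta, and plasmids were delivered with a lipid reagent, so the cells of a culture need not carry equal amounts. The Arteridin antibody was custom-made in rabbit against the full-length protein. For YBX1 the labels name 3 antibodies together. Reads were 50 nt long and single-ended for Arteridin, and 150 nt long and paired for YBX1. Peak lists hold no expression values, so the cell type could not be checked against markers.

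Vascular smooth muscle cells can move between a contractile state and a proliferating, matrix-producing state, a change known as phenotype switching. Arteridin is the protein product of the Phenotype Switching Regulator gene, which also gives the long non-coding transcript lncPSR. YBX1 is a cold-shock domain protein that binds DNA and RNA and takes part in transcription, splicing and control of translation. In ChIP-seq, DNA bound by a protein is pulled down with an antibody and sequenced, and a peak is a stretch with more reads than the caller expects from the background. That expectation is usually the larger of a genome-wide and a local average of the input library, which is sequenced without pull-down.

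The ORF list had narrow peaks with a median length of 80 bp, a median fold enrichment of 5.63 and a median of 8 reads at the summit, the base with most reads. The ART list had broad peaks with a median length of 398 bp and a median fold of 4.41. Folds and −log10 q values are the authors' own for each peak. For each ART peak the distance ran from its midpoint to the nearest ORF summit on the same chromosome.

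Counted singly, YBX1 peaks were nearer to Arteridin summits in the median than positions along the chromosomes were, though 437 of the 587 lay more than 1 Mb away. The median distance was 5.63 Mb (95% interval over peaks 4.90 to 7.29), with a lower quartile of 865 kb and an upper quartile of 15.9 Mb. Among positions taken every 1 kb the median was 7.92 Mb. With ART peaks linked over gaps of up to 100 kb, only the peak of highest fold was kept in each of 462 loci. Under this setting, chosen with the data known, the ART median was 7.32 Mb (5.65 to 8.22), an interval that contained the value for positions. The shares of linked peaks within 10 kb, 100 kb and 1 Mb of a summit were above those of positions, as given with the loci below. The effect of the choice of peak within a locus was not tested. Within 1 kb of an ORF summit there were 8 ART peaks, which is 1.36% of the list (95% Wilson interval 0.692 to 2.67). Within 10 kb there were 28 (4.77%, 3.32 to 6.81), within 100 kb 73 (12.4%, 10.01 to 15.4) and within 1 Mb 150 (25.6%, 22.2 to 29.2). These intervals cover counting error only, and peaks of the same locus are not independent.

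The background for these shares is the share of positions along the chromosomes, taken every 1 kb, that lie as near to an ORF summit. It was 0.137% at 1 kb, 0.46% at 10 kb, 1.83% at 100 kb and 10.9% at 1 Mb. The ART shares were above the background at all 4 distances. Assembly gaps and unmappable sequence were not removed from the positions, so the background is somewhat low.

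Shares above the background were also seen without the crowded start of chromosome 6. Below 12 Mb on that chromosome lay 2571 ORF peaks (88.0% of the list) and 3 ART peaks (0.511%). Without that stretch in either list, 7 of 584 ART peaks (1.20%) were within 1 kb, 26 (4.45%) within 10 kb, 70 (11.99%) within 100 kb and 147 (25.2%) within 1 Mb. The background then fell to 0.0215%, 0.18%, 1.49% and 10.5%. The median distance was 5.74 Mb (4.92 to 7.33) with 351 ORF summits, against 7.98 Mb for positions.

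**Figure D1:**
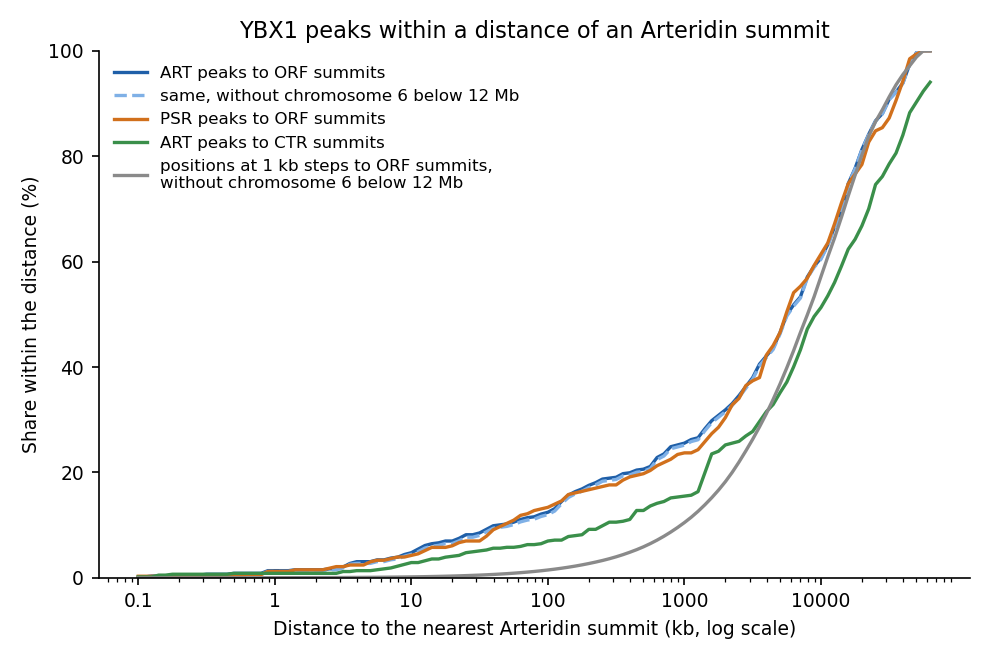
Share of YBX1 peaks (y axis, %) whose midpoint lies within a given distance (x axis, kb, log scale) of an Arteridin summit, for ART and PSR peaks to ORF summits and ART peaks to CTR summits, with positions at 1 kb steps in grey. The ART curve reaches 4.77% at 10 kb and 25.6% at 1 Mb, the dashed curve without chromosome 6 below 12 Mb 4.45% and 25.2%, and the grey curve 0.18% and 10.5%.

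The distances next to each limit, inside and outside, belonged to YBX1 peaks on different chromosomes. At 1 kb the nearest values were 0.891 and 1.37 kb, at 10 kb 9.10 and 10.03 kb, at 100 kb 91.7 and 102.2 kb, and at 1 Mb 955 and 1030 kb.

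In the start of chromosome 6 the density of YBX1 peaks was close to that elsewhere, while that of Arteridin peaks was not. ART peaks stood at 2.50 per 10 Mb there and at 2.17 per 10 Mb on the rest of the chromosomes. ORF peaks stood at 2143 and at 1.30 per 10 Mb. With 3 ART peaks the first of these densities is loosely known.

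The 3 YBX1 peaks of that stretch differed in what lay around them. The peak from 2672278 to 2672676 (fold 3.12) had 4 ORF summits within 1 kb and 13 within 10 kb, and its midpoint was 209 bp from the nearest. The peak from 7642670 to 7644528 (fold 4.33) had none within 1 kb and 4 within 10 kb, the nearest at 3.70 kb. The peak from 9464648 to 9465060 was the ART peak with the highest fold of the list on these chromosomes, 12.7, and was also listed in PSR and NC. It had no ORF summit within 10 kb, 38 within 100 kb and 392 within 1 Mb, and the nearest stood 10138 bp away.

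Overlap in the strict sense was seen at 7 ART peaks, which held or touched 9 ORF peaks. The ORF summit itself lay inside the YBX1 peak at 5 ART peaks. The 8 ART peaks within 1 kb comprise these 7 and 1 more. They are described in turn because they form the closest pairs of a YBX1 and an Arteridin peak. The level named for each is the number of reads the caller expected at the ORF summit, recovered from the authors' fold and p. Its lowest value in the ORF list, the genome-wide background, was 0.361.

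At 2 of the 8 the Arteridin summit stood at that lowest level, 0.361. On chromosome 15, the YBX1 peak from 22207695 to 22208147 (fold 2.46, −log10 q 1.66) had its midpoint 66 bp from a summit with 10 reads and a fold of 8.08, the highest Arteridin fold among these pairs. That ORF peak was also listed in CTR, whereas the YBX1 peak was not listed in PSR. On chromosome 1, the YBX1 peak from 148166542 to 148167684 (fold 4.88, −log10 q 2.30) lay 315 bp from a summit with 6 reads and a fold of 5.14. The YBX1 peak was listed in neither PSR nor NC, and the Arteridin peak not in CTR.

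At the other 6 pairs the Arteridin summit had a raised expected level. On chromosome 1, the YBX1 peak from 148643474 to 148644345 (fold 2.20) lay 113 bp from a summit with 46 reads where 20.7 were expected. The one on chromosome 6 described above, from 2672278, lay beside a summit with 41 reads where 9.40 were expected, a fold of 4.04. Chromosome X from 358923 to 359729 (fold 2.19) lay 484 bp from a summit with 20 reads where 3.76 were expected. At the pairs from 148643474, 2672278 and 358923 the ORF peak was also listed in CTR. Of their YBX1 peaks only the one from 148643474 was listed in PSR.

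The remaining pairs of this kind belonged to longer series of YBX1 peaks. Chromosome 1 from 180927031 to 180928599 (fold 2.07) did not overlap the ORF peak, whose summit stood 818 bp from the midpoint with 56 reads where 27.2 were expected. Chromosome 14 from 46528053 to 46529953 (fold 2.83, −log10 q 4.63) lay 860 bp from a summit with 46 reads where 19.7 were expected. Chromosome 6 from 30642281 to 30644167 (fold 2.56, −log10 q 4.32) lay 891 bp from a summit with 41 reads where 15.97 were expected. The last 2 YBX1 peaks were also listed in PSR, and the one from 180927031 was not. None of the ORF peaks of these remaining pairs was listed in CTR.

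Between 1 and 10 kb the same kind of site recurred. The nearest ART peak beyond 1 kb, chromosome 12 from 1510187 to 1510637 (fold 1.69), and its neighbour from 1512178 to 1512429 (fold 1.66) stood 1366 and 3258 bp from a summit with 69 reads where 34.8 were expected. On chromosome 15 from 5946164 to 5946506 (fold 4.14) the distance was 2344 bp and the level 2.82. Also on chromosome 15, from 20678676 to 20679255 (fold 4.30), it was 3163 bp and the level 0.940.

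The other near peaks of this range stood in series around a summit already named or a similar one. On chromosome 6, peaks from 30646444 to 30647677 and from 30640584 to 30641247 (folds 3.48 and 3.88) flanked the summit at 30644115 at 2946 and 3199 bp. Also there, a peak of 5617 bp from 31055345 to 31060961 (fold 3.24) ended 203 bp short of a summit with 35 reads where 13.2 were expected. On chromosome 14, a peak of 4696 bp from 46530950 to 46535645 (fold 2.95) lay 3435 bp from the summit at 46529863.

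**Figure D2:**
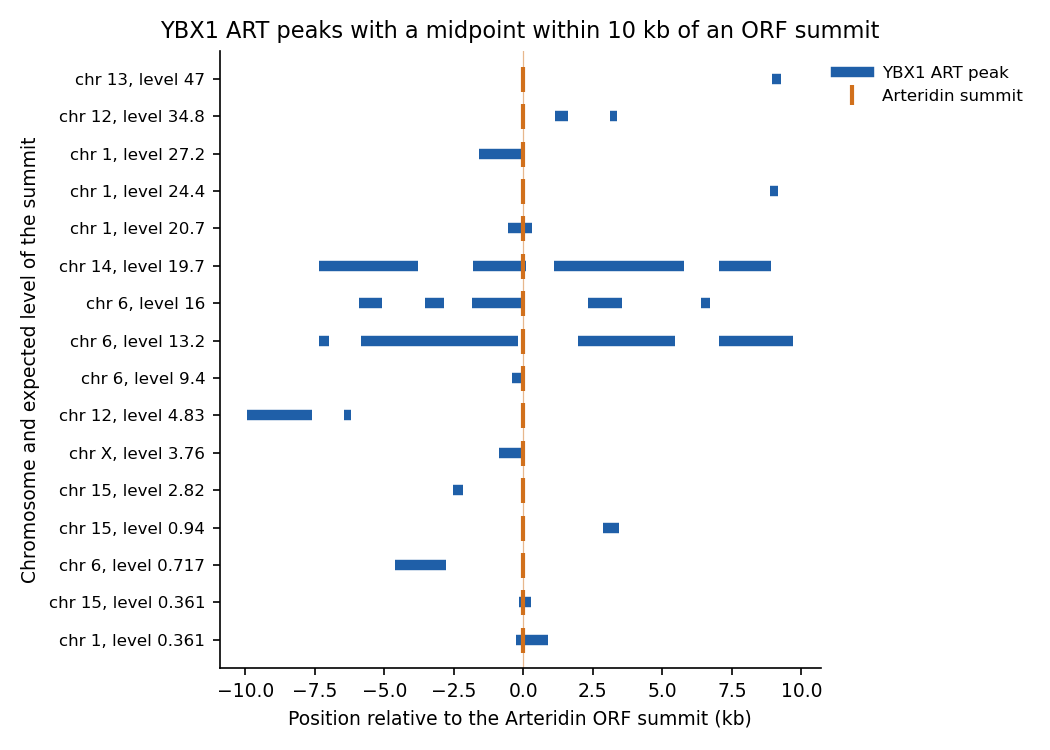
Extent of the 28 YBX1 ART peaks (bars) whose midpoint lies within 10 kb of an Arteridin ORF summit, in kb from that summit (tick at 0), with 1 line per summit labelled by chromosome and expected level. The 16 lines run from a level of 0.361 at the bottom to 47.0 at the top, and the lines of chromosomes 14 and 6 at levels of 13.2 to 19.7 carry several YBX1 peaks each.

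The 28 near peaks thus shared few Arteridin summits. They had 16 nearest summits between them, at 15 loci on 7 chromosomes. Over these 16 summits the median level was 11.3 (range 0.361 to 47.0), the median number of reads 38 and the median fold 3.10. Over all 2922 ORF summits the medians were 0.478 for the level, 8 for the reads and 5.63 for the fold. These 16 summits were thus high in reads and low in fold. All 48 ORF summits within 10 kb of a YBX1 midpoint had medians of 6.15 for the level, 28.5 for the reads and 4.38 for the fold. Outside chromosome 6 below 12 Mb, the 31 such summits had 3.76, 20 and 3.86, against 0.498, 8 and 5.14 for all 351.

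A level above 0.723, which is 2 times the lowest of the list, was found at 13 of the 16 summits (81.2%). Over all ORF summits it was found at 884 (30.3%), and outside chromosome 6 below 12 Mb at 155 of 351 (44.2%). At 12 of these 13 it was a whole multiple, within 0.001, of 0.940, the commonest level above the lowest and the value at 603 ORF summits. Such multiples were also the rule among raised summits outside chromosome 6 below 12 Mb, with 131 of 155 (84.5%). A raised level stood at the nearest summit of 25 of the 28 near YBX1 peaks. The exceptions were chromosome 15 from 22207695, chromosome 1 from 148166542 and chromosome 6 from 7642670, where the level was 0.717.

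Divided by that level, a setting chosen after the data were seen, the ORF summits outside chromosome 6 below 12 Mb gave unlike distances to YBX1. Near the 155 summits with a raised level lay 25 of 584 ART peaks within 10 kb (4.28%, 2.92 to 6.24), 66 within 100 kb (11.3%) and 129 within 1 Mb (22.1%). The positions along the chromosomes as near to these summits made up 0.0860%, 0.699% and 5.05%. Near the 196 summits with a level up to that limit lay 2 ART peaks within 10 kb (0.342%, 0.0940 to 1.24), 6 within 100 kb (1.03%) and 33 within 1 Mb (5.65%). There the positions made up 0.102%, 0.883% and 6.59%. Within 1 kb, 5 ART peaks (0.856%) lay near raised summits and 2 (0.342%) near the others, against 0.00988% and 0.0122% of positions.

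Around summits with the low level the ART shares at 100 kb and 1 Mb were thus near the background, and at 10 kb the interval of the share contained it. The share at 1 kb was above it but rested on 2 peaks. Around summits with a raised level the shares were above the background at all 4 distances. The part of the expected level in the nearness was not tested.

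**Figure D3:**
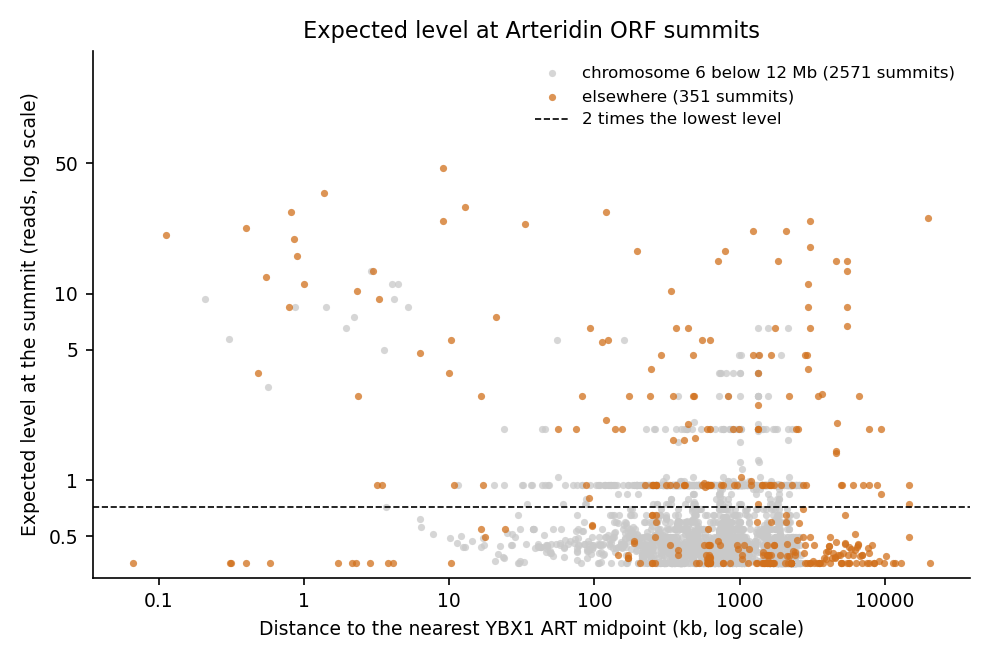
Expected level at each ORF summit (y axis, reads, log scale) against the distance to the nearest YBX1 ART midpoint (x axis, kb, log scale), for 2571 summits on chromosome 6 below 12 Mb (grey) and 351 elsewhere (orange). The dashed line marks 0.723, and of the 31 orange summits within 10 kb 20 lie above it, against 60 of the 185 beyond 1 Mb.

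Seen from the Arteridin side, 17 of 2922 ORF summits (0.582%) lay within 1 kb of a YBX1 midpoint, 48 (1.64%) within 10 kb, 184 (6.30%) within 100 kb and 1835 (62.8%) within 1 Mb. Of all positions, 0.043%, 0.377%, 3.42% and 28.8% lay so near to an ART midpoint. The share at 1 Mb came from chromosome 6, where 1669 of the 2571 summits below 12 Mb had 1 of the 3 YBX1 peaks within that distance.

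Without that stretch, 13 of 351 ORF summits (3.70%, 2.18 to 6.23) lay within 1 kb of a YBX1 midpoint, 31 (8.83%, 6.29 to 12.3) within 10 kb, 50 (14.2%, 10.98 to 18.3) within 100 kb and 166 (47.3%, 42.1 to 52.5) within 1 Mb. The shares of positions were 0.043%, 0.377%, 3.42% and 28.7%. The median distance was 1.24 Mb (0.773 to 1.49). The 116 summits between 100 kb and 1 Mb stood at 59 loci when linked over gaps of up to 100 kb, so they were not all separate sites.

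Outside that stretch, 79 of the 351 ORF summits (22.5%) were also listed without overexpression. Of the 31 within 10 kb, 18 overlapped a CTR peak (58.1%, 40.8 to 73.6), against 21 of the 185 beyond 1 Mb (11.4%, 7.55 to 16.7). A raised level was present at 20 of the 31 (64.5%, 46.9 to 78.9) and at 60 of the 185 (32.4%, 26.1 to 39.5). The 31 summits stood at 13 loci, and 2 of these, on chromosome 15 from 22207484 to 22212094 and on chromosome 1 from 148642879 to 148647227, held 18 of them. In these 2 loci 14 of the 18 were in CTR (77.8%) and 8 were raised. At the other 11 loci 4 of 13 were in CTR (30.8%, 12.7 to 57.6) and 12 were raised. Of the 16 summits nearest to an ART peak within 10 kb, 6 (37.5%) were in CTR. The CTR share near YBX1 thus rested largely on 2 loci.

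Many of the YBX1 peaks near Arteridin stood in a small number of loci. The 73 ART peaks within 100 kb of an ORF summit made up 24 loci when linked over gaps of up to 100 kb, and 5 loci held 50 of them (68.5%). The same 5 loci held 31 PSR peaks and, with 100 kb on either side, 7 ORF peaks. Only ART peaks within 100 kb of a summit were linked, so YBX1 peaks farther off could extend a locus or stand beside it. At 16 of the 24 loci there was a single such peak. All ART peaks were also linked in this way, with only the one of highest fold kept per locus. The share within 10 kb was then 2.38% (1.33 to 4.21) in place of 4.77%. That within 100 kb was 4.76% (3.17 to 7.10) in place of 12.4%, and that within 1 Mb 16.02% (12.96 to 19.6) in place of 25.6%. The shares of positions, 0.46%, 1.83% and 10.9%, lay below these intervals.

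The largest of these loci, chromosome 14 from 46517738 to 46621425, held 18 ART peaks with a median length of 1760 bp and a median fold of 3.08. Its stated end is set by the 100 kb limit. Further ART peaks continued the series beyond that limit and were not counted, the first of them from 46630153 at 102.2 kb from the summit. The locus had a single ORF summit, with a level of 19.7, and no CTR summit. Chromosome 1 from 180806390 to 181015100 held 11 ART peaks with a median fold of 1.82 and 2 ORF summits with levels of 24.4 and 27.2. Chromosome 13 from 33488056 to 33630687 held 8 ART peaks with a median fold of 1.85, 2 ORF summits with levels of 29.1 and 47.0, and 8 CTR summits.

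The other 2 of the 5 were both on chromosome 6. From 31046711 to 31070870 there were 7 ART peaks (median fold 3.62) around 1 ORF summit with a level of 13.2. From 30631531 to 30650844 there were 6 (median fold 3.33) around 1 ORF summit with a level of 15.97. A locus of the opposite make-up was seen on chromosome 15, where the 100 kb on either side of the YBX1 peak from 22207695 held 11 ORF summits, with folds up to 14.7 and a median level of 0.361, around 1 ART peak.

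Counted singly, YBX1 peaks near Arteridin were longer, lower in fold and more often shared with PSR than those far from it. The 28 within 10 kb had a median length of 860 bp and a median fold of 2.93 (quartiles 2.20 and 3.53). The 437 beyond 1 Mb had a median length of 354 bp and a median fold of 4.49 (quartiles 4.26 and 4.86). A PSR peak overlapped 10 of the 28 (35.7%, 20.7 to 54.2) and 22 of the 45 between 10 and 100 kb (48.9%, 34.96 to 63.0). It overlapped 44 of the 437 beyond 1 Mb (10.1%, 7.59 to 13.2), and 93 of all 587 (15.8%).

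Divided by locus after these values were seen, the 73 peaks within 100 kb fell into unlike sets. Only these 73 were linked, so a peak counted as single may have YBX1 peaks beside it that lie farther from a summit. The 57 at the 8 loci with several peaks had a median length of 924 bp and a median fold of 2.90, and 30 of them (52.6%, 39.9 to 65.0) were in PSR. The 16 at loci with a single peak had a median length of 467 bp and a median fold of 4.09, and 2 of them (12.5%, 3.50 to 36.0) were in PSR. The values of these 16 lay between those of the 57 and those beyond 1 Mb, and their PSR share rested on 2 peaks. The 437 peaks beyond 1 Mb were not divided by locus, so the division does not place the difference.

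The same peaks gave the pattern by fold. Of the 86 with a fold under 3, 15 (17.4%, 10.9 to 26.8) lay within 10 kb of an ORF summit and 36 (41.9%) within 100 kb, and their median distance was 0.136 Mb. Of the 402 with a fold from 3 to 5, 12 (2.99%, 1.72 to 5.14) and 34 (8.46%) did, with a median of 6.62 Mb. Of the 99 with a fold of at least 5, 1 (1.01%, 0.179 to 5.50) and 3 (3.03%) did, with a median of 9.73 Mb. The loci with several peaks held 32 of the 36 peaks of low fold within 100 kb, so these counts are not of separate sites.

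By length and significance the shares were as follows. Of the 211 ART peaks of 600 bp or more, 17 (8.06%, 5.09 to 12.5) lay within 10 kb, against 11 of the 376 shorter ones (2.93%, 1.64 to 5.16). Of the 52 with a −log10 q of at least 5, 0 lay within 1 kb (interval up to 6.88%), 4 within 10 kb (7.69%, 3.03 to 18.2) and 19 within 100 kb (36.5%, 24.8 to 50.1). Of the other 535, 8 (1.50%), 24 (4.49%, 3.03 to 6.59) and 54 (10.1%, 7.82 to 12.9) did. At 1 and 10 kb the intervals of these 2 classes overlapped. Loci with several peaks held 57 of the 73 ART peaks within 100 kb, so the counts by length and significance are not of separate sites.

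**Figure D4:**
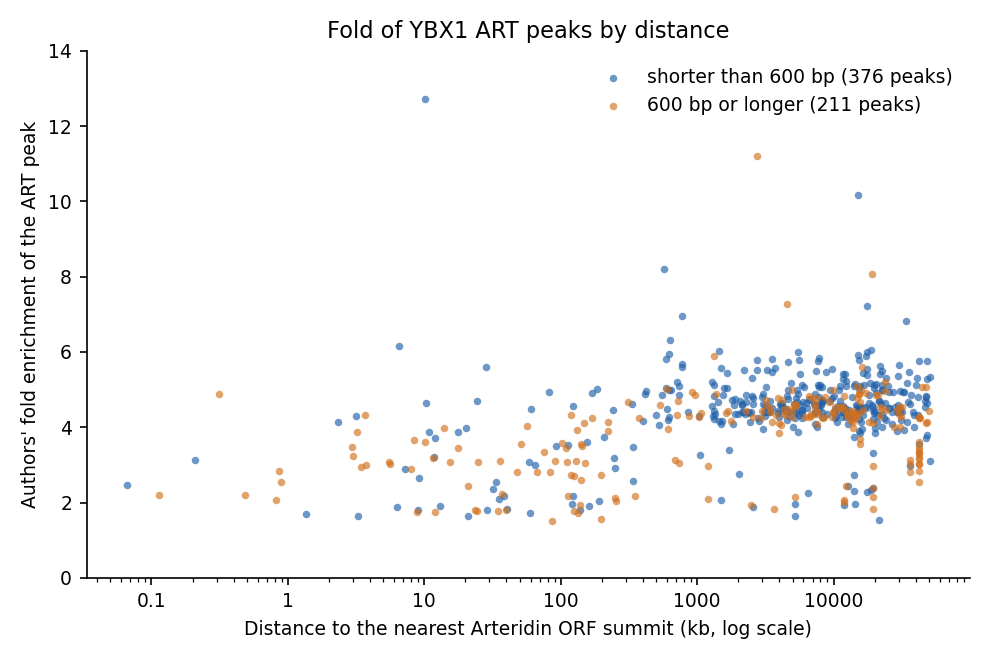
Authors' fold enrichment of each YBX1 ART peak (y axis) against the distance of its midpoint to the nearest Arteridin ORF summit (x axis, kb, log scale), for 376 peaks shorter than 600 bp (blue) and 211 of 600 bp or longer (orange). Within 10 kb the median fold is 2.93, and beyond 1 Mb it is 4.49. The peak with a fold of 12.7 stands 10.1 kb from a summit.

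The 8 strongest YBX1 peaks lay between 10138 bp and 18.999 Mb from an Arteridin summit. After the chromosome 6 peak with a fold of 12.7, chromosome 10 from 84915178 to 84915868 (fold 11.2) had its nearest ORF summit at 2.72 Mb, and chromosome 20 from 4368704 to 4369054 (10.2) at 15.1 Mb. Both were also listed in PSR, and the former in NC. Chromosome 1 from 162984532 to 162985110 (8.21) stood 0.573 Mb away, and chromosome 4 from 157607261 to 157608143 (8.08) 18.999 Mb. Chromosome 5 from 173429485 to 173430362 (7.27) stood at 4.52 Mb, chromosome X from 88678772 to 88679040 (7.22) at 17.5 Mb and chromosome 7 from 3123382 to 3123693 (6.95) at 0.770 Mb. The peak on chromosome 7 was also listed in PSR and NC, and those on chromosomes 1, 4, 5 and X in neither. Of these 8 peaks, 1 (12.5%) lay within 100 kb of an ORF summit and 3 (37.5%) within 1 Mb, against 12.4% and 25.6% of all ART peaks. Their median was 3.62 Mb.

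Of the 10 strongest Arteridin peaks, by fold in the whole list or outside the start of chromosome 6, 2 lay within 100 kb of a YBX1 midpoint and 5 within 1 Mb, against 6.30% and 62.8% of all ORF summits. For the 8 outside that start these counts were 2 and 4, against 14.2% and 47.3% of the 351 ORF summits there. The peaks on chromosome 13 from 75060105 to 75060408 (106 reads, fold 63.0) and from 75060968 to 75061039 (49 reads, 33.4) had their nearest YBX1 peak at 2.73 Mb. On chromosome 1 from 265469348 to 265469424 (56 reads, 36.8) the nearest YBX1 peak, from 265445022 to 265445502, stood 24.1 kb away. On chromosome 15 from 22211684 to 22211862 (19 reads, 14.7) it was the peak from 22207695 named above, at 3.81 kb.

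Further strong Arteridin peaks had distances of 0.249 to 2.27 Mb. On chromosome 6 the peak from 3388147 to 3388595 (26 reads, 14.6) stood 0.716 Mb from a YBX1 peak, and that from 11029020 to 11029215 (47 reads, 12.6) 1.56 Mb. On chromosome 2, peaks from 261363980 (17 reads, 13.2) and from 261363525 (15 reads, 11.8) stood 2.27 Mb away. Those from 197333140 and from 197334090 (16 reads each, 12.5) stood 0.249 and 0.250 Mb away. All of these peaks, and those of the preceding paragraph, were also listed in CTR, as were 611 of all 2922 ORF peaks (20.9%). A wider choice by strength outside chromosome 6 below 12 Mb, the 57 ORF peaks whose −log10 q reached 5, had 7 (12.3%, 6.08 to 23.2) within 10 kb, 13 (22.8%, 13.8 to 35.2) within 100 kb and 37 (64.9%, 51.9 to 76.0) within 1 Mb. For all 351 these shares were 8.83%, 14.2% and 47.3%. The median was 0.570 Mb, against 1.24 Mb. All 351 stood at 199 loci when linked over gaps of up to 100 kb. The 57 were not linked, so neighbouring summits count singly in these shares, intervals and medians.

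With only the ORF peaks of a −log10 q of 5 or more, the share of ART peaks within 10 kb was 1.02% in place of 4.77% and the median distance 43.8 Mb, with 157 ART peaks on chromosomes left without an ORF peak. That list had 447 summits, 57 of them outside chromosome 6 below 12 Mb, and 0.152% of positions lay within 10 kb of one, in place of 0.46%. The ART share was thus above that of positions with this list too. Where both lists were restricted to a −log10 q of at least 5, 52 ART and 447 ORF peaks were left, and 1 ART peak lay within 10 kb of an ORF summit. That peak, chromosome 1 from 180852551 to 180852812 (fold 1.79, −log10 q 6.07), stood 9017 bp from a summit with 74 reads where 24.4 were expected. It was named after its value was seen.

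The YBX1 peaks farthest from Arteridin were all on chromosome 2. Peaks from 80448481 to 80448716 (fold 5.34), from 80436992 to 80437292 (3.10) and from 91363275 to 91364181 (4.42) had their nearest ORF summits at 50.4, 50.4 and 50.0 Mb.

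YBX1 and Arteridin peaks were densest on different chromosomes. Outside chromosome 6 below 12 Mb, chromosome 1 had the most of both, 98 ART and 73 ORF peaks, and is the longest. Per 10 Mb, ART was densest on chromosome 14, with 4.02 peaks (45 in all) against 0.268 ORF peaks (3 in all). Of the 45 ART peaks, 18 lay in the largest locus described above, whose series ran on past the 100 kb limit. ORF was densest on chromosome 12, with 3.69 per 10 Mb (17) against 1.96 ART peaks (9).

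Outside chromosome 6 below 12 Mb, chromosomes 4, 8, 12 and 15 had more Arteridin than YBX1 peaks, and they differed in how many were near. Chromosome 8 held 36 ORF and 17 ART peaks, and no ART peak lay within 1 Mb of an ORF summit. Chromosome 4 held 50 ORF and 39 ART peaks, with 5 ART peaks within 1 Mb and none within 100 kb. Chromosome 12 had 6 of its 9 ART peaks within 1 Mb and 4 within 10 kb. Chromosome 15, with 27 ORF and 20 ART peaks, had 5 within 1 Mb and 3 within 10 kb. On chromosome 14, with few ORF peaks, 31 of 45 ART peaks lay within 1 Mb of 1 of the 3 ORF summits. Of these, 18 stood in the largest locus, around a single summit.

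**Figure D5:**
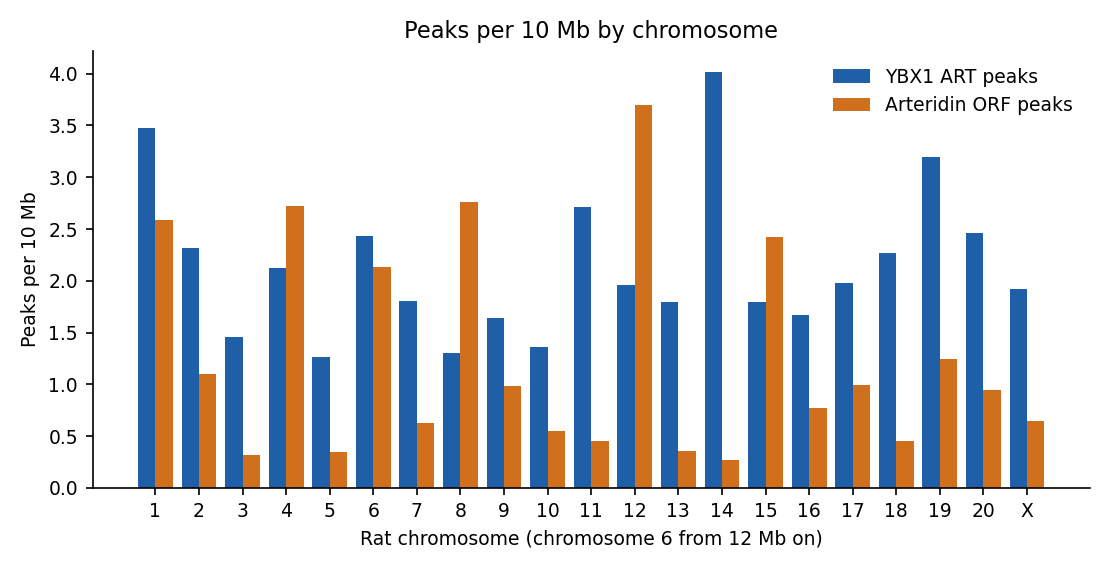
Peaks per 10 Mb (y axis) by rat chromosome (x axis) for YBX1 ART (blue) and Arteridin ORF (orange), with chromosome 6 counted from 12 Mb on and chromosome ends set at the furthest listed peak. ART is highest on chromosome 14 (4.02) and ORF on chromosome 12 (3.69).

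Other lists gave distances of the same order. The comparisons share the ORF or the ART list, and lists differ in length and background, so their values are set side by side only. Of 329 PSR peaks, 4 (1.22%) lay within 1 kb of an ORF summit, 14 (4.26%, 2.55 to 7.02) within 10 kb, 44 (13.4%, 10.1 to 17.5) within 100 kb and 78 (23.7%, 19.4 to 28.6) within 1 Mb, with a median of 5.61 Mb. Of 79 NC peaks, 1, 1, 6 and 15 did, which is 1.27%, 1.27%, 7.59% and 18.99%.

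With the Arteridin list without overexpression in place of ORF, 5 ART peaks (0.852%) lay within 1 kb of a CTR summit, 17 (2.90%, 1.82 to 4.59) within 10 kb, 41 (6.98%, 5.19 to 9.34) within 100 kb and 91 (15.5%, 12.8 to 18.7) within 1 Mb. CTR had 1971 summits on these chromosomes, and the shares of positions were 0.0967%, 0.355%, 1.16% and 6.77%. The median distance was 9.36 Mb, with 13 ART peaks on a chromosome that had no CTR peak. The shares were above those of positions with either Arteridin list, and the difference between the lists was not tested.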

How the data were processed

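Each of the 5 ChIP libraries came with 1 deposited peak list. The submitters' processing notes name MACS2, HOMER, Bowtie2, SAMtools and FastQC. Versions, cutoffs, controls and genome build were not given in the sources used here, and the read depth of the libraries is not known from peak lists. Sequence names match the rat assembly Rnor_6.0, and coordinates count from 1. For each peak the authors deposited a score, which equals 10 times the −log10 q without decimals, a fold enrichment as a ratio, the −log10 p and the −log10 q. The deposited narrow lists add a summit offset. No gene annotation or sequence was used here.

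RefSeq names of the Arteridin lists were mapped to chromosome names. Distances, shares and Wilson intervals were computed with Python 3.11.15, pandas 2.3.3 and SciPy 1.17.1, checked on data with known answers. Overlap means at least 1 bp. The furthest listed peak end served as the end of each chromosome (2.71 Gb in all). Reads and expected level at narrow summits were solved from fold = (reads + 1) / (level + 1) and the Poisson p. All 2922 ORF and 1971 CTR summits were solved within 0.0001 in −log10 p.

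Named peaks were those within 1 kb or overlapping, the 8 nearest beyond 1 kb, those on chromosome 6 below 12 Mb, the 8 of highest fold per list (for ORF also without that stretch), the 3 farthest, and the chromosomes with most peaks. Members, lists and settings were chosen with earlier results of these data known.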

Additional observations from a re-analysis of the deposited data

How the results depend on the processing

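Values are the shares of ART peaks within 1 kb, 10 kb, 100 kb and 1 Mb of an ORF summit and the median distance, compared with the 95% interval of the value reported. Keeping ORF peaks from a −log10 q of 5 upward gave 0.511%, 1.02%, 3.07%, 7.84% and 43.8 Mb, with 157 ART peaks on chromosomes that then had no ORF peak. Keeping ART peaks from a −log10 q of 2 upward gave 16.1% at 100 kb and 31.9% at 1 Mb. Both together gave 0.292%, 0.585%, 4.09%, 9.94% and 43.5 Mb. In 2 alternatives added after the data were seen, ORF summits with a level up to 2 times the lowest gave 0.341%, 0.511%, 1.53%, 6.13% and 16.5 Mb, and ART peaks linked over gaps of up to 100 kb gave 2.38%, 4.76% and 16.02% at 10 kb, 100 kb and 1 Mb and a median of 7.32 Mb. Stricter lists hold fewer summits, and linking counts a locus once, by its peak of highest fold. Beyond this the cause was not tested. The other 29 of 50 values stayed inside the interval, among them all those without chromosome 6 below 12 Mb, with merging within 1000 bp, from the peak edge and to the Arteridin midpoint. No paired analysis was possible because every group held a single library. The median ORF summit rested on 8 reads, and the reads of ART peaks were not recovered, so a peak missing from a list does not show that the protein was absent.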

Other observations

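Outside chromosomes 1 to 20 and X the ART list held 21 further peaks, with a median fold of 4.83 and a highest of 30.6, and the ORF list 91. The lists name unplaced scaffolds differently, and no distance was taken there.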
